A study of Homo sapiens with 9 samples.

Results

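Hematopoietic cytokine receptors were examined as 10 genes of the 30017 in the count table, found by their symbols: FLT3, KIT, CSF1R, CSF2RA, CSF2RB, CSF3R, IL3RA, IL6R, IFNGR1 and TNFRSF1B. The rule that finds them uses no measured value. The RNA came from MOLM13, a human acute myeloid leukemia line with monocytic features that carries an internal tandem duplication in FLT3 (FLT3-ITD). Cells were transduced with pLKO-GFP lentivirus and sorted on day 4. The sh-Control group carried a control hairpin, and the shDDX41 #1 and shDDX41 #2 groups each carried a different hairpin against DDX41, an RNA helicase whose germline mutations predispose to myeloid malignancy. All 3 groups therefore share the line, the FLT3-ITD, the vector and the sort, and each has 3 libraries, lettered A, B and D. The study sequenced these cells to learn more of how p53 becomes active when DDX41 is lost. Each hairpin is a single short RNA, so an effect of DDX41 and an effect of that hairpin's own sequence cannot be told apart within 1 group.

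These receptors sit on the cell surface and carry the signals by which cytokines keep myeloid cells alive, dividing and maturing. FLT3, KIT and CSF1R are related receptor tyrosine kinases: ligand binding pairs them and switches on their own kinase domain. The receptors for GM-CSF and interleukin 3 join a ligand-specific alpha chain to a shared beta chain and, like the receptors for G-CSF, interleukin 6 and interferon gamma, borrow JAK kinases, which then activate STAT transcription factors. TNFRSF1B, a receptor for tumour necrosis factor, works instead through TRAF adaptors.

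The libraries held 16385238 to 20510032 counts. Levels are given as CPM, the count scaled to the size of the library. DDX41 fell from 115 CPM in sh-Control to 11.7 with shDDX41 #1 and 40.4 with shDDX41 #2 (log2 fold changes -3.29 and -1.51). Myeloid markers of MOLM13 were present: CD33, ANPEP, CD4, ITGAM, LYZ, MPO, CD68 and SPI1 had enough counts to be tested, while CD14 had at most 3 counts in a library. Their summed level over all 9 listed markers was 1786 to 1826 CPM in sh-Control, 1802 to 1936 with shDDX41 #1 and 2716 to 2742 with shDDX41 #2, where LYZ stood at 1818 CPM against 931 in sh-Control. LYZ, MPO and ITGAM were the 3 of 8 tested markers called with shDDX41 #2, all higher, where 25.0% of all genes were called. CD33, ANPEP, CD4, CD68 and SPI1 were not. With shDDX41 #1, 3 of 8 were called, where 47.8% of all genes were called. These were CD33, CD4 and CD68, all higher (log2 fold changes 0.25, 0.25 and 0.42). The B cell markers MS4A1 and PAX5, the T cell marker CD2 and the erythroid and megakaryocytic markers HBA1, HBB and PF4 were at 0 in every library. Library D of shDDX41 #1 stood apart from its group. Its counts differed from those of A and B by a chi-square per degree of freedom of 17.6 and 19.2, against 2.91 between A and B, so receptor values without it are given where they change a call. In bulk RNA, fewer cells of a type and less RNA per cell cannot be told apart.

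Of the 10 receptors, 7 differed between shDDX41 #1 and sh-Control, 6 being higher (FLT3, CSF2RA, IL3RA, CSF2RB, IL6R, IFNGR1) and 1 lower (CSF1R). Over all 12712 genes tested, 47.8% were called in this comparison at an adjusted p under 0.05, 23.7% higher and 24.1% lower. With shDDX41 #2, 4 receptors differed from sh-Control, 3 higher (KIT, CSF2RA, IL3RA) and 1 lower (CSF2RB), where the share over all genes was 25.0%, with 11.6% higher and 13.4% lower. Between the hairpins 6 receptors differed, 4 higher (FLT3, CSF2RB, IL6R, IFNGR1) and 2 lower (KIT, CSF1R) with shDDX41 #1, against 48.8% of all genes, 24.6% higher and 24.2% lower. KIT entered the test only through its counts in shDDX41 #2, so it could be tested only because its groups differed, and it adds no weight to these counts. Without library D of shDDX41 #1 the counts were 6, 4 and 6, IFNGR1 being the receptor no longer called with shDDX41 #1 (log2 fold change 0.18, adjusted p = 0.0506).

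The libraries of the compared groups did not overlap for 7 receptors with shDDX41 #1, for 5 with shDDX41 #2 and for 7 between the hairpins, where the shares over all genes were 53.1%, 43.8% and 57.7%. KIT is among the 5 and among the 7 between the hairpins. It was tested only through shDDX41 #2, where it is high, so it adds no weight to these counts either. The median log2 fold change of the receptors was 0.20, 0.01 and 0.12 in the 3 comparisons, beside 0.01, -0.01 and 0.01 over all genes. Their median absolute change was 0.31, 0.17 and 0.26, beside 0.29, 0.18 and 0.29. The absolute changes of the receptors were thus of the size seen over all genes. With upper quartile scaling, 61.1% in place of 49.5% of all calls with shDDX41 #1 were higher, while the receptors stayed at 6 higher and 1 lower. Both hairpins were compared with the same 3 control libraries.

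**Figure D1:**
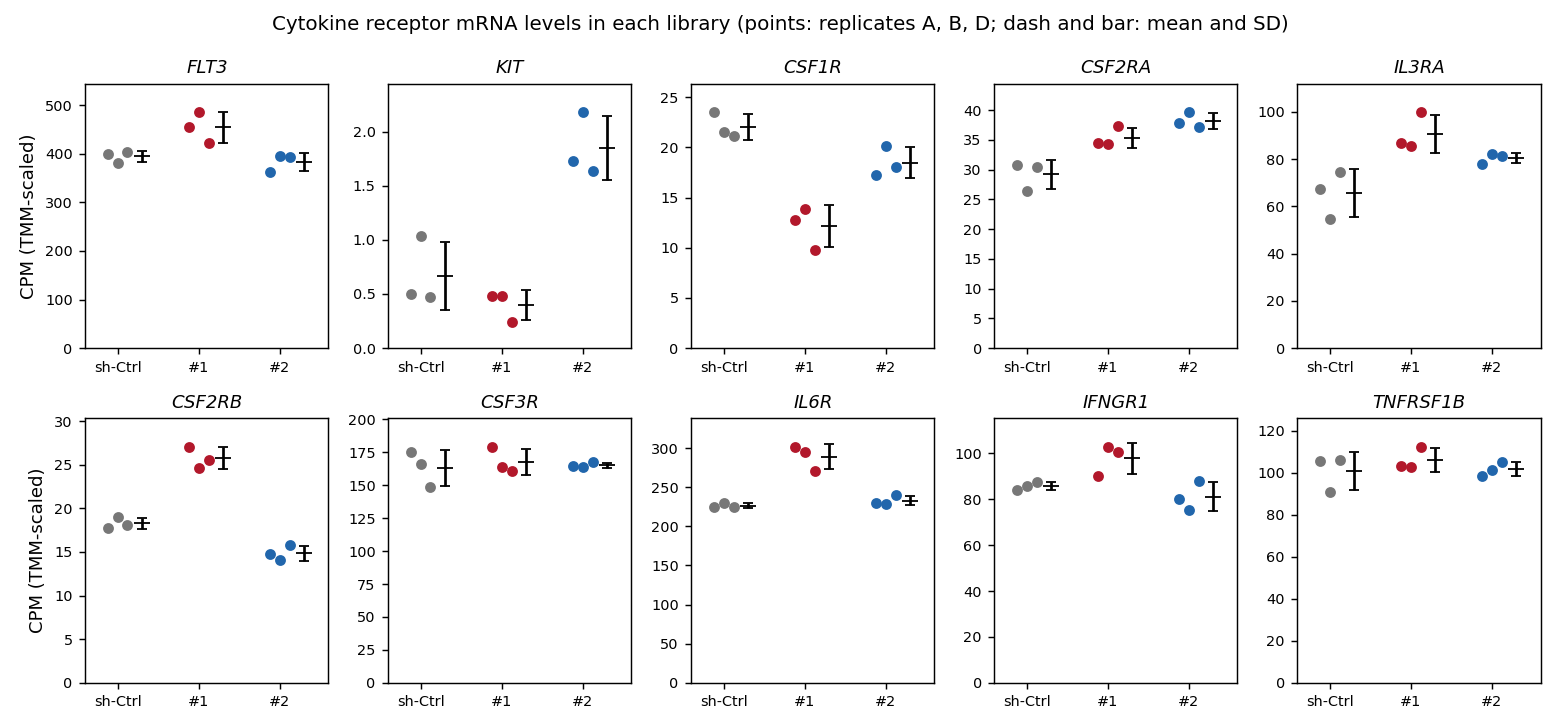
Level of each receptor in every library, in CPM on axes that start at 0, by group (sh-Ctrl is sh-Control, #1 and #2 are the shDDX41 hairpins). Points are libraries A, B and D from left to right, and the dash and bar are the mean and SD. CSF1R is lowest with #1, KIT is highest with #2, CSF2RB is highest with #1 and lowest with #2, and the 3 groups of CSF3R and of TNFRSF1B overlap.

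Set on one scale by exon length, FLT3 was the most abundant receptor in every group. Its level in sh-Control was 103 ± 3.11 CPM per kb (SD, n = 3). CSF3R (47.2 ± 3.87), IL3RA (38.3 ± 5.95) and IL6R (37.6 ± 0.533) followed in CPM per kb, each overlapping its neighbour, and then IFNGR1 (29.1 ± 0.621) and TNFRSF1B (27.3 ± 2.41), which also overlapped. CSF2RA (10.1 ± 0.839), CSF1R (5.53 ± 0.323) and CSF2RB (3.75 ± 0.128) lay lower and apart from each other. KIT was last at 0.129 ± 0.0608 CPM per kb. FLT3 had 6475 to 8118 counts in a library and KIT 4 to 44.

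The order changed little with the hairpins. With shDDX41 #1, CSF2RB at 5.27 ± 0.254 CPM per kb stood above CSF1R at 3.04 ± 0.520, the reverse of sh-Control, and IL3RA moved to the second place at 53.1 ± 4.68, overlapping CSF3R at 48.6 ± 2.89. With shDDX41 #2 the places were those of sh-Control, with CSF1R at 4.64 ± 0.381 and CSF2RB at 3.04 ± 0.177. Taking the longest transcript in place of all exons raised CSF2RA in sh-Control to 12.7 and IFNGR1 to 34.0 CPM per kb and exchanged the overlapping pair CSF3R and IL6R with shDDX41 #1, with every other place kept.

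**Figure D2:**
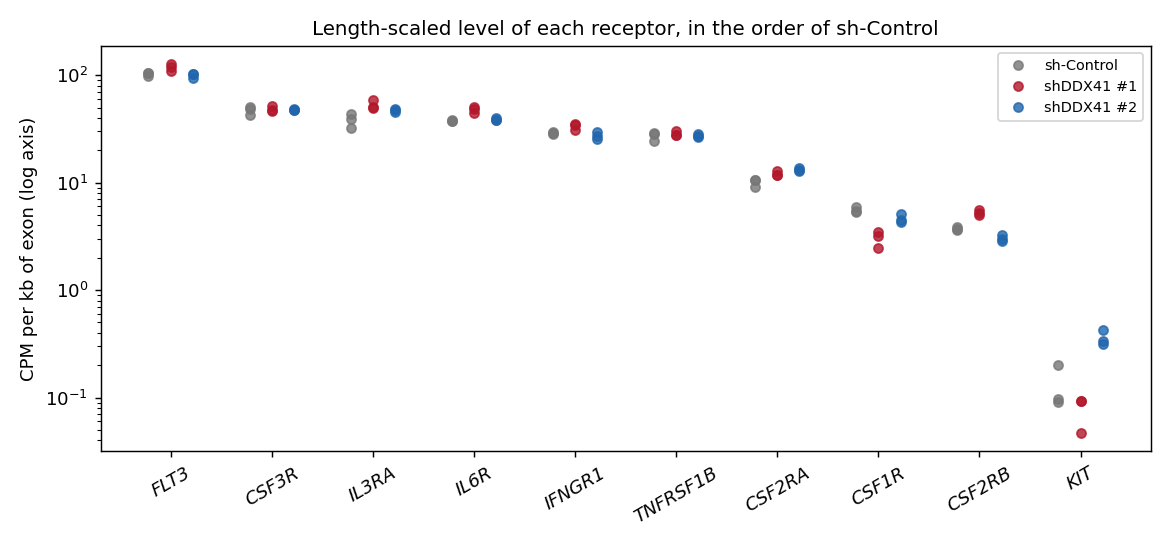
Level of each receptor per kb of exon (CPM per kb, log axis), 1 point per library, coloured by group and ordered by the mean of sh-Control. FLT3 is highest at about 100 and KIT lowest, under 1, in all 3 groups, and CSF1R and CSF2RB change places with shDDX41 #1.

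Among the receptor tyrosine kinases, CSF1R fell with shDDX41 #1, KIT rose from a very low level with shDDX41 #2, and FLT3 was slightly higher with shDDX41 #1. FLT3, the receptor for FLT3 ligand and the one that is mutated in this line, lies on the minus strand of chromosome 13 (GRCh38 chr13:28003274-28100592). Its level was 399, 381 and 404 CPM in sh-Control A, B and D, 455, 486 and 423 with shDDX41 #1, and 362, 396 and 392 with shDDX41 #2. The lowest shDDX41 #1 library lay above the highest control library, while the shDDX41 #2 and control libraries overlapped. With shDDX41 #1 it was higher by 0.20 on the log2 scale (SE 0.0670, adjusted p = 0.0204), and with shDDX41 #2 the value was -0.04 (95% interval -0.18 to 0.10, adjusted p = 0.704). Between the hairpins it was 0.24 (adjusted p = 0.00727). The first of these calls did not hold when library B was left out of sh-Control (adjusted p = 0.0748) or of shDDX41 #1 (adjusted p = 0.0878), nor the third without shDDX41 #2 A (adjusted p = 0.0519). Counts per gene do not separate reads of the duplicated allele from those of the normal one.

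KIT, the receptor for stem cell factor and a mark of immature blood cells and mast cells, lies on chromosome 4 (GRCh38 chr4:54657918-54740715, plus strand). It had only 9, 18 and 9 counts in sh-Control and 8, 8 and 4 with shDDX41 #1, but 32, 44 and 27 with shDDX41 #2. Every shDDX41 #2 library was above every other library, and the other groups overlapped. Summed over libraries, KIT stood at 0.661 CPM in sh-Control (exact Poisson 95% interval 0.463 to 0.915), 0.402 with shDDX41 #1 (0.245 to 0.621) and 1.87 with shDDX41 #2 (1.52 to 2.26), intervals that cover counting error only. KIT rose with shDDX41 #2 by 1.48 on the log2 scale (SE 0.331, adjusted p = 0.00474). The difference of shDDX41 #1 from shDDX41 #2 was -2.19 (SE 0.371, adjusted p = 2.0e-04). KIT passed the count filter only through shDDX41 #2, where it is high, so neither adjusted p carries weight as a test. Any change of KIT with shDDX41 #1 against sh-Control was not detectable at this depth (log2 fold change -0.71, 95% interval -1.65 to 0.22, adjusted p = 0.196).

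CSF1R, the receptor for CSF1 and interleukin 34 that drives monocyte and macrophage growth, lies on the minus strand of chromosome 5 (GRCh38 chr5:150053291-150113372). Its level was 23.5, 21.6 and 21.1 CPM in sh-Control, 12.8, 13.8 and 9.83 with shDDX41 #1, and 17.2, 20.2 and 18.1 with shDDX41 #2. The 3 groups did not overlap one another, with shDDX41 #1 lowest. CSF1R changed by -0.86 on the log2 scale with shDDX41 #1 (SE 0.121, adjusted p = 3.8e-05). With shDDX41 #2 the value was -0.25 (adjusted p = 0.122), and the hairpins differed by -0.61 (adjusted p = 7.8e-04). Library D of shDDX41 #1 was the lowest of all. Without it the fold change with shDDX41 #1 was -0.72 (adjusted p = 3.3e-05) and the difference between the hairpins -0.47 (adjusted p = 0.00175). Expressed within libraries, the log2 ratio of CSF1R to FLT3 counts was -4.16 ± 0.088 in sh-Control, -4.38 ± 0.074 with shDDX41 #2 and -5.24 ± 0.164 with shDDX41 #1 (SD, n = 3).

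CSF1R has a pair of start sites in RefSeq, an upstream one and a downstream one used in myeloid cells. The 250 bases before each are shown because CSF1R was the receptor that fell with shDDX41 #1, both read 5′ to 3′ on the minus strand of GRCh38.p14, with capitals marking matches to GAGGAA (a core bound by PU.1 and other ETS factors), TGTGGT (a RUNX core) and TGANTCA (an AP-1 core), the downstream window being chr5:150086555-150086804 and the upstream one chr5:150113366-150113615.
CSF1R downstream: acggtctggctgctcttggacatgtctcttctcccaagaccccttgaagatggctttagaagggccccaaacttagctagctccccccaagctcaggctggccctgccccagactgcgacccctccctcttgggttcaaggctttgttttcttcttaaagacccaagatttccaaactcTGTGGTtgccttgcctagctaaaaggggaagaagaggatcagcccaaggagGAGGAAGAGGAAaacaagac
CSF1R upstream: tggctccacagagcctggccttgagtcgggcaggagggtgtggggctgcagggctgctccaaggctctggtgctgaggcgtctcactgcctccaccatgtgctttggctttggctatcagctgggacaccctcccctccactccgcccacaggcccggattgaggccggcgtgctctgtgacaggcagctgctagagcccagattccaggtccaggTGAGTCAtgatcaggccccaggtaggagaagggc
The downstream window held GAGGAA at -20 and -14 and, past the start site, at 20, with TGTGGT at -71, where positions give the first base relative to the start. The upstream window held TGANTCA at -34 and no GAGGAA. Of 34961 RefSeq windows of the same length (250 bases before to 50 after a start), 27.9% held GAGGAA, 13.1% TGTGGT and 7.7% TGANTCA on either strand. The counts do not tell which start was used.

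The chains of the GM-CSF and interleukin 3 receptors moved apart with shDDX41 #2: both alpha chains were higher with each hairpin, while their shared beta chain was higher with shDDX41 #1 and lower with shDDX41 #2. CSF2RA, the GM-CSF binding chain, and IL3RA, the interleukin 3 binding chain known as CD123, neighbour each other in the pseudoautosomal region (GRCh38 chrX:1268800-1310381 and chrX:1336616-1382689, plus strand), which has an identical copy on the Y chromosome. How reads that map to both copies were counted is not given in the sources used here, so the absolute levels of these genes are uncertain.

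CSF2RA was at 30.8, 26.4 and 30.4 CPM in sh-Control, 34.4, 34.4 and 37.3 with shDDX41 #1, and 37.9, 39.7 and 37.1 with shDDX41 #2. Each hairpin's libraries all lay above the control libraries, and the hairpins overlapped. On the log2 scale CSF2RA rose by 0.28 with shDDX41 #1 (SE 0.0802, adjusted p = 0.0102) and by 0.39 with shDDX41 #2 (SE 0.0794, adjusted p = 0.00251). The first of these did not pass when library B of sh-Control was left out (adjusted p = 0.0537). Between the hairpins it was -0.11 (95% interval -0.28 to 0.06, adjusted p = 0.255).

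IL3RA was at 67.2, 54.6 and 74.7 CPM in sh-Control, a coefficient of variation of 15.5% that was exceeded there only by KIT. It was at 87.0, 85.4 and 99.98 with shDDX41 #1 and 77.9, 82.0 and 81.2 with shDDX41 #2. Neither hairpin's libraries overlapped the control libraries. IL3RA rose by 0.47 on the log2 scale with shDDX41 #1 (SE 0.0972, adjusted p = 0.00106) and by 0.29 with shDDX41 #2 (SE 0.0972, adjusted p = 0.0378). The second call was lost in 5 of the 9 fits that left out 1 library (sh-Control A or B, or any shDDX41 #2 library), and without sh-Control B the change was 0.18 (adjusted p = 0.145). Between the hairpins IL3RA differed by 0.18 (95% interval -0.03 to 0.38, adjusted p = 0.145).

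CSF2RB, the beta chain that GM-CSF, interleukin 3 and interleukin 5 receptors share and that binds JAK2, lies on chromosome 22 (GRCh38 chr22:36913628-36940449, plus strand). Its level was 17.8, 19.0 and 18.1 CPM in sh-Control, 27.1, 24.6 and 25.5 with shDDX41 #1, and 14.8, 14.0 and 15.8 with shDDX41 #2. The 3 groups did not overlap one another. CSF2RB changed by 0.49 with shDDX41 #1 (log2 scale, SE 0.0873, adjusted p = 3.0e-04) and by -0.30 with shDDX41 #2 (SE 0.0901, adjusted p = 0.0234). The fall with shDDX41 #2 did not pass the test when shDDX41 #2 A (adjusted p = 0.0696), shDDX41 #2 B (adjusted p = 0.101) or sh-Control B (adjusted p = 0.0806) was left out. Between the hairpins CSF2RB differed by 0.80 (SE 0.0888, adjusted p = 4.1e-06), a difference kept in every fit that left out 1 library.

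Ratios of the chains within a library do not depend on how libraries are scaled. The log2 ratio of CSF2RB to CSF2RA counts was -0.67 ± 0.171 in sh-Control, -0.46 ± 0.102 with shDDX41 #1 and -1.36 ± 0.132 with shDDX41 #2 (SD, n = 3). All 3 shDDX41 #2 libraries were below all others, at 0.618 times the control ratio, while the other groups overlapped. The log2 ratio of CSF2RB to IL3RA was -1.83 ± 0.271, -1.82 ± 0.143 and -2.44 ± 0.097 in the same order, again with shDDX41 #2 below and the others overlapping. With 3 against 3 libraries an exact permutation test cannot give a p under 0.1, and it gave 0.1 for shDDX41 #2 against sh-Control in both ratios.

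The start sites of CSF2RA and IL3RA are shown because these were the receptors that rose with both hairpins. Both windows are the 250 bases before the RefSeq start on the plus strand of GRCh38.p14 (chrX:1268564-1268813 and chrX:1336535-1336784), with capitals marking GAGGAA in CSF2RA and TTCNNNGAA (the core that STAT factors bind) in IL3RA.
CSF2RA: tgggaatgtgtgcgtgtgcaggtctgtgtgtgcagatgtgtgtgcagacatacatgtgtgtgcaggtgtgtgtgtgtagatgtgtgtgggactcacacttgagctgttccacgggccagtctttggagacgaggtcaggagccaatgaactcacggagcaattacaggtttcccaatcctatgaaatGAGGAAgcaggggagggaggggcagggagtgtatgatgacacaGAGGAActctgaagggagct
IL3RA: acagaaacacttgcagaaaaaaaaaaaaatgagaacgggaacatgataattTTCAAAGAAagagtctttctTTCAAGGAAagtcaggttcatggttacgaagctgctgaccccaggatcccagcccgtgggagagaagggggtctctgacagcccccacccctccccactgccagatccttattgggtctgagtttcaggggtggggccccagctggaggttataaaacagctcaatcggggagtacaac
CSF2RA held GAGGAA at -63 and -20. IL3RA held no GAGGAA but had TTCNNNGAA at -199, -179 and, past the start, at 13. Only 7.7% of all windows held TTCNNNGAA at all. RefSeq windows were matched for 9 of the 10 receptors, with 12 start sites, and CSF2RB was not matched. GAGGAA was found in 6 of the 12 windows (FLT3, the downstream CSF1R start, CSF2RA, 1 start each of CSF3R and IFNGR1, and IL6R). Of all windows, 27.9% held it, and CSF1R, CSF3R and IFNGR1 each gave more than 1 of the 12. AGATAA, a core of GATA factors that 10.3% of all windows held, was found in none of the 12. TTGCNNCAA, a core of C/EBP factors that 2.0% of all windows held, was also found in none. These are matches of letters and not known sites.

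CSF3R and IL6R, whose receptors signal through JAK1 or JAK2 and STAT3, behaved differently from each other. CSF3R, the G-CSF receptor that supports neutrophil production, lies on the minus strand of chromosome 1 (GRCh38 chr1:36466043-36483278). Its level was 175, 166 and 149 CPM in sh-Control, 179, 164 and 160 with shDDX41 #1, and 164, 164 and 167 with shDDX41 #2. All 3 groups overlapped. The log2 fold change was 0.04 with shDDX41 #1 (95% interval -0.11 to 0.19, adjusted p = 0.650) and 0.02 with shDDX41 #2 (-0.13 to 0.17, adjusted p = 0.875), and 0.02 between the hairpins (-0.13 to 0.17, adjusted p = 0.806).

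IL6R, the chain that binds interleukin 6 before joining the signal chain IL6ST (gp130), lies on the plus strand of chromosome 1 (GRCh38 chr1:154405193-154469450). It was at 224, 230 and 224 CPM in sh-Control, 302, 294 and 271 with shDDX41 #1, and 230, 229 and 240 with shDDX41 #2. The shDDX41 #1 libraries were above all others, and the other groups overlapped. IL6R rose by 0.35 on the log2 scale with shDDX41 #1 (SE 0.0608, adjusted p = 2.5e-04). With shDDX41 #2 the value was 0.04 (95% interval -0.09 to 0.17, adjusted p = 0.659), and the hairpins differed by 0.31 (adjusted p = 6.4e-04). Both differences were kept in every fit that left out 1 library. The antisense gene IL6R-AS1 overlaps IL6R, and whether strand was used in counting is not given in the sources used here, so reads of the pair may not be told apart.

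IL6ST itself had a far lower count, 12.6 CPM in sh-Control, 11.2 with shDDX41 #1 and 9.57 with shDDX41 #2. Its log2 fold change was -0.17 (adjusted p = 0.218) with shDDX41 #1 and -0.40 (adjusted p = 0.0153) with shDDX41 #2, the latter not passing without sh-Control B, shDDX41 #2 B or shDDX41 #2 D (largest adjusted p = 0.0687). The log2 ratio of IL6R to IL6ST counts was 4.17 ± 0.042 in sh-Control, 4.69 ± 0.059 with shDDX41 #1 and 4.61 ± 0.124 with shDDX41 #2 (SD, n = 3). The libraries of each hairpin lay above those of sh-Control, with IL6R higher in 1 group and IL6ST lower in the other.

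IFNGR1, the chain that binds interferon gamma and JAK1, lies on the minus strand of chromosome 6 (GRCh38 chr6:137197484-137219449). Its level was 83.8, 85.9 and 87.5 CPM in sh-Control, 90.1, 103 and 101 with shDDX41 #1, and 79.9, 75.3 and 87.8 with shDDX41 #2. The shDDX41 #1 libraries were above all others, while shDDX41 #2 and sh-Control overlapped. The rise with shDDX41 #1 was 0.19 on the log2 scale (SE 0.0732, adjusted p = 0.0428), close to the threshold and lost in 6 of the 9 fits that left out 1 library (all but those without shDDX41 #1 A, shDDX41 #2 B or shDDX41 #2 D). The value was -0.08 (95% interval -0.24 to 0.07, adjusted p = 0.440) with shDDX41 #2. Between the hairpins it was 0.27 (SE 0.0733, adjusted p = 0.00630), kept in all 9 such fits. IFNGR2, the second chain, stood at 53.4, 51.1 and 55.7 CPM in sh-Control, shDDX41 #1 and shDDX41 #2 and was called in no comparison (log2 fold changes -0.06, 0.06 and, between the hairpins, -0.12).

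TNFRSF1B, one of the receptors for tumour necrosis factor, lies on the plus strand of chromosome 1 (GRCh38 chr1:12167003-12209228). It was at 106, 90.5 and 106 CPM in sh-Control, 103, 102 and 112 with shDDX41 #1, and 98.4, 101 and 105 with shDDX41 #2. All groups overlapped. The log2 fold change was 0.07 with shDDX41 #1 (95% interval -0.08 to 0.23, adjusted p = 0.442), 0.01 with shDDX41 #2 (-0.15 to 0.17, adjusted p = 0.929) and 0.06 between the hairpins (-0.10 to 0.22, adjusted p = 0.521). TNFRSF1A, the other receptor for the same ligand, was at 96.6, 108 and 90.9 CPM. It was higher with shDDX41 #1 than with shDDX41 #2 (log2 fold change 0.25, adjusted p = 0.00587), while its values against sh-Control were 0.16 (adjusted p = 0.0572) and -0.09 (adjusted p = 0.354). The value with shDDX41 #1 passed the test without library D of that group (0.19, adjusted p = 0.0236).

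**Figure D3:**
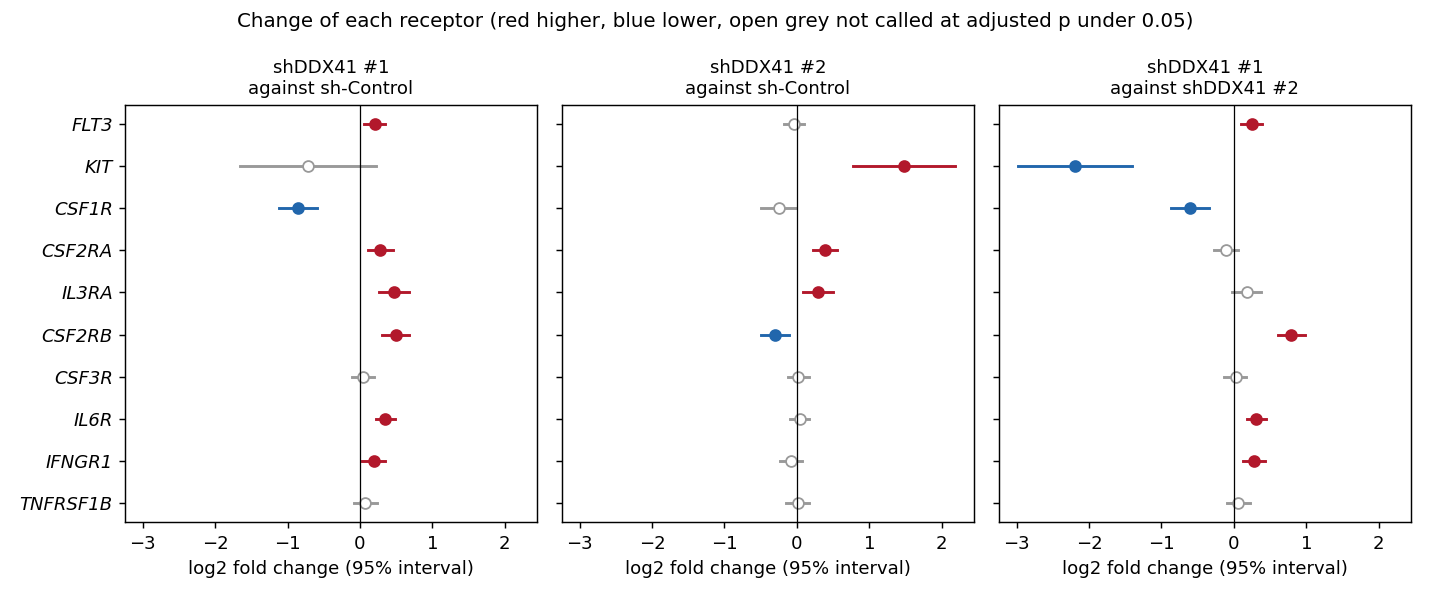
Log2 fold change of the 10 receptors with its 95% interval in the 3 comparisons, red where higher, blue where lower and open grey where not called at an adjusted p under 0.05. The intervals of CSF3R and TNFRSF1B cross 0 in every panel, CSF2RA and IL3RA are red in the first pair of panels, and CSF2RB is red with shDDX41 #1 and blue with shDDX41 #2.

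**Figure D4:**
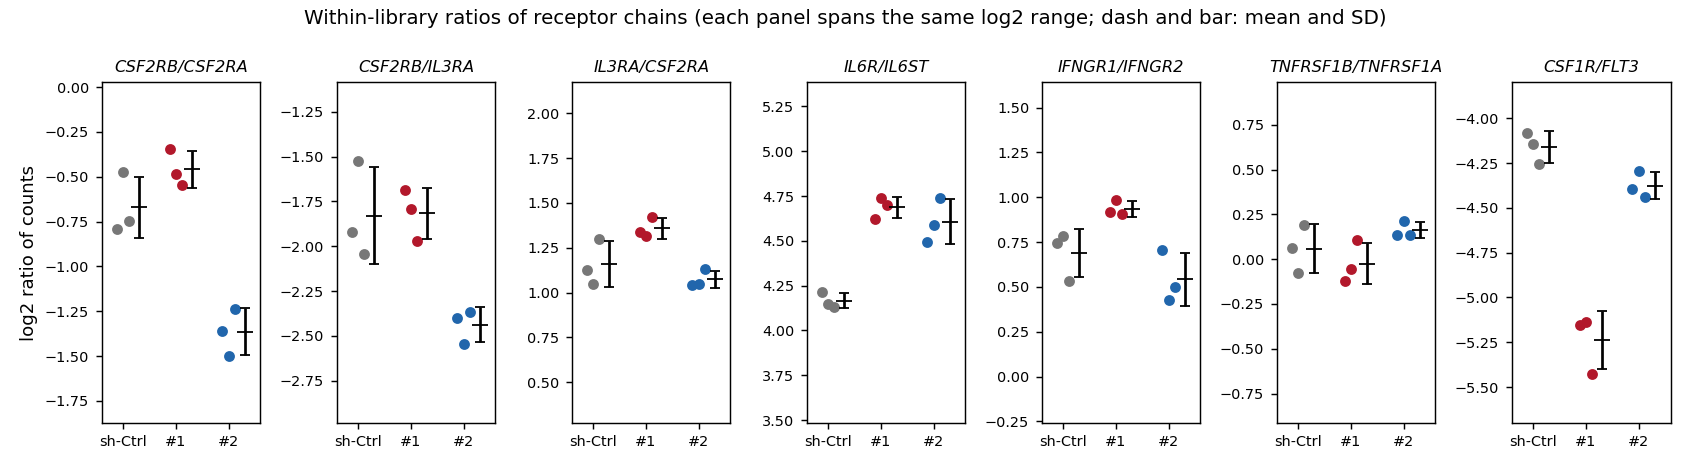
Log2 ratio of the counts of receptor pairs within each library, 1 point per library (A, B, D from left to right) with mean and SD, each panel spanning the same log2 range. CSF2RB to CSF2RA and CSF2RB to IL3RA are lowest with shDDX41 #2, CSF1R to FLT3 is lowest with shDDX41 #1, and IL6R to IL6ST is higher with both hairpins.

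Few of the receptors' ligands were transcribed by these cells. Of 12 ligands listed, CSF2, IL3, IL5, CSF3, IL6 and IFNG had 0 counts in every library, which allows up to 0.149 to 0.182 CPM, and CSF1, IL34 and LTA were too low to test. FLT3LG, the ligand of FLT3, was at 1.61, 1.72 and 1.47 CPM in sh-Control, 2.77, 2.87 and 3.40 with shDDX41 #1, and 2.49, 2.28 and 3.33 with shDDX41 #2. Both hairpins' libraries lay above those of sh-Control, with log2 fold changes of 0.91 (SE 0.219, adjusted p = 0.00313) and 0.74 (SE 0.220, adjusted p = 0.0224). The second of these did not pass without library D of sh-Control or of shDDX41 #2 (largest adjusted p = 0.116). The counts behind FLT3LG were low, 28 to 56 in a library, and other annotated genes overlap it. KITLG, the ligand of KIT, was at 1.30, 1.27 and 1.85 CPM and was not called (log2 fold changes -0.04 and 0.50, adjusted p = 0.905 and 0.138). TNF was at 70.6 CPM in sh-Control and 52.2 with shDDX41 #2 (log2 fold change -0.43, adjusted p = 0.0307), a call that 4 of the 9 fits with 1 library left out did not keep (without sh-Control A or B or shDDX41 #2 B or D, largest adjusted p = 0.132). With shDDX41 #1 it ranged from 49.1 to 80.6 CPM (log2 fold change -0.16, adjusted p = 0.365), and its difference between the hairpins of 0.28 (adjusted p = 0.108) became 0.43 (adjusted p = 0.00293) without shDDX41 #1 D, the lowest library of that group.

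Of 24 other cytokine receptors listed, 17 were tested. With shDDX41 #1, 4 were higher and 3 lower, where 47.8% of all genes were called. With shDDX41 #2, 4 were higher and 2 lower, where 25.0% of all genes were called. Between the hairpins 6 were higher and 6 lower with shDDX41 #1, where the share over all genes was 48.8%. Their median log2 fold changes were 0.07, -0.08 and 0.06. IL17RA, a chain of the interleukin 17 receptors, rose from 170 CPM to 285 with shDDX41 #1 (log2 fold change 0.74, adjusted p = 1.6e-07) and 232 with shDDX41 #2 (0.45, adjusted p = 8.5e-05). IL1RAP, a partner chain of the interleukin 1 receptor, fell from 76.7 to 49.5 CPM with shDDX41 #1 (-0.63, adjusted p = 8.8e-06). IL7R, the interleukin 7 binding chain of lymphoid cells, fell to 5.58 CPM with shDDX41 #2 (-0.98, adjusted p = 5.7e-05). IL2RA, the alpha chain of the interleukin 2 receptor, had 3 to 6 counts in the control libraries, 27 to 38 with shDDX41 #1 and 1 to 3 with shDDX41 #2. IL2RA passed the filter only through shDDX41 #1, where it is high, so its calls add no weight to the counts of this list.

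Downstream of the receptors, 9 of 11 JAK kinases and STAT factors were tested, of which 3 were higher and 2 lower with shDDX41 #1 (47.8% of all genes called) and 2 higher and 1 lower with shDDX41 #2 (25.0% of all genes called). Leaving out 1 library at a time gave 3 to 6 calls with shDDX41 #1 and 0 to 4 calls with shDDX41 #2, where the 0 was without shDDX41 #2 D and 1 call was left without sh-Control A. JAK1, which serves the interleukin 6 and interferon receptors, fell from 77.8 to 51.8 CPM with shDDX41 #1 (log2 fold change -0.59, adjusted p = 1.1e-05). STAT2, a factor of type I interferon signalling, rose from 28.2 CPM with both hairpins, with shDDX41 #1 to 49.6 (0.81, adjusted p = 2.0e-06) and with shDDX41 #2 to 35.5 (0.33, adjusted p = 0.0110). The rise of STAT2 with shDDX41 #2 did not pass without shDDX41 #2 D (adjusted p = 0.0531). Between the hairpins 3 genes of this list were higher and 3 lower (48.8% of all genes called). The median log2 fold changes of the list were 0.06, 0.05 and 0.10.

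Adaptors were tested for 10 of 11 genes, with 0 higher and 2 lower with shDDX41 #1, 2 higher and 1 lower with shDDX41 #2, and 2 higher and 5 lower between the hairpins, where 47.8%, 25.0% and 48.8% of all genes were called. Of the 2 higher between the hairpins, 1 passed the filter only through shDDX41 #1, where it is high, so its call adds no weight. Their median log2 fold changes were -0.05, -0.09 and -0.05. Leaving out 1 library gave 2 to 3, 1 to 3 and 3 to 7 calls, with the 1 call when any shDDX41 #2 library was left out and the 3 between the hairpins without shDDX41 #2 D. PTPN11, the phosphatase SHP2 that links receptors to RAS, fell from 252 to 146 CPM with shDDX41 #1 (log2 fold change -0.79, adjusted p = 1.2e-07). BIRC2, a ubiquitin ligase of the tumour necrosis factor receptor complexes, fell from 35.1 to 19.3 CPM (-0.86, adjusted p = 2.4e-06). GAB2 and GRB2, docking and adaptor proteins of receptor tyrosine kinases, rose with shDDX41 #2 by log2 fold changes of 0.37 (adjusted p = 0.00258) and 0.19 (adjusted p = 0.0266). For GRB2 this held only in the fits that kept sh-Control B and D and all 3 shDDX41 #2 libraries (largest adjusted p = 0.115).

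Inhibitors of cytokine signalling were all tested, 18 of 18. With shDDX41 #1, 7 were higher and 3 lower, with shDDX41 #2, 3 and 3, and between the hairpins 3 and 4, where 47.8%, 25.0% and 48.8% of all genes were called. With upper quartile scaling the split with shDDX41 #1 was 9 higher and 1 lower. The median log2 fold changes were 0.11, 0.04 and 0.12. Without sh-Control B, shDDX41 #2 B or shDDX41 #2 D, 3 in place of 6 inhibitors were called with shDDX41 #2. CISH, a SOCS family inhibitor that STAT5 induces, was at 43.4, 40.2 and 39.2 CPM in sh-Control, 105, 97.9 and 86.8 with shDDX41 #1, and 31.8, 31.5 and 30.5 with shDDX41 #2. Its log2 fold changes were 1.24 (SE 0.0767, adjusted p = 1.4e-08) and -0.39 (SE 0.0798, adjusted p = 0.00270), and the difference between the hairpins was 1.62 (adjusted p = 1.6e-09). These are the directions of CSF2RB in both comparisons, and a link between CISH and CSF2RB was not tested. SOCS3, the inhibitor that binds gp130 and the G-CSF receptor, was at 14.8 CPM with shDDX41 #1 and 6.43 with shDDX41 #2 (log2 fold change 1.20, adjusted p = 2.7e-04). PIAS3, an inhibitor of STAT3, fell from 14.3 to 8.11 CPM with shDDX41 #1 (-0.81, adjusted p = 9.1e-05). SOCS6, which acts on KIT and FLT3, fell from 12.2 to 8.65 CPM with shDDX41 #2 (-0.50, adjusted p = 0.00274).

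Of 3 genes of receptor shedding, the protease ADAM17 fell from 84.9 to 72.3 CPM (log2 fold change -0.23, adjusted p = 0.0126) and its cofactor RHBDF2 rose from 10.4 to 13.6 CPM (0.39, adjusted p = 0.0265) with shDDX41 #1. The call of RHBDF2 was lost without sh-Control A or D or without shDDX41 #1 A or B (largest adjusted p = 0.112), and that of ADAM17 without shDDX41 #1 B (adjusted p = 0.0582) or with upper quartile scaling. None of the 3 was called with shDDX41 #2. Over all genes, 47.8% were called with shDDX41 #1 and 25.0% with shDDX41 #2. Between the hairpins, where 48.8% of all genes were called, ADAM17 was lower with shDDX41 #1 (-0.34, adjusted p = 9.9e-04). RHBDF2 was higher (0.41, adjusted p = 0.0187), a call lost in 4 of the 9 fits that left out 1 library.

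For each receptor called in a comparison, the tested genes with the most similar course over the 9 libraries were found as those with the smallest Euclidean distance between log2 levels taken relative to the sh-Control mean. They were TMEM184C (0.132) and PCBP1 (0.137) for FLT3, HNRNPUL1 (0.246) and TFRC (0.249) for CSF1R, LCMT1 (0.155) and VPS51 (0.169) for CSF2RA, RPS15A (0.213) and LAPTM4A (0.221) for IL3RA, and PIGB (0.156) and UNC93B1 (0.236) for CSF2RB. IL6R was nearest to DCTN4 (0.0881) and BRAP (0.113), and IFNGR1 to ATXN3 (0.164) and UPF2 (0.175). For KIT the nearest were SORL1 (1.20) and BPI (1.23), at a larger distance and with low counts in KIT. No other of the 10 receptors was among these nearest genes. Only the 2 nearest of 9833 candidates (9834 for KIT) were kept per receptor, and KIT itself was too low to be a candidate. Their absence therefore does not show whether the receptors moved together.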

How the data were processed

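Libraries were prepared by the authors with poly(A) selection. Per the labels the kit kept strand, while the study's methods name a kit of the same family that does not. The submitters' processing notes list FastQC 0.11.7, HISAT2 2.0.5 and featureCounts 1.5.2 and the builds mm10 and hg38, with no role given. The annotation, strand setting and treatment of multi-mapped reads are not given in the sources used here. The authors deposited whole-number counts per gene, not normalized, for 9 libraries in 3 groups taken from the labels.

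Of 30017 genes, 12712 passed filterByExpr (edgeR 4.0.16, R 4.3.3, minimum count 10). Libraries were scaled by TMM (factors 0.963 to 1.02), and a quasi-likelihood model over all 9 libraries gave 3 contrasts, two-sided, with Benjamini-Hochberg adjustment over all genes tested and calls at an adjusted p under 0.05. Adjusted p-values without another name are from this fit, and the SE is the size of the log2 fold change divided by the square root of F. CPM used the TMM-scaled totals. The depth of 16385238 to 20510032 counts sets the counting error, and the 95% Poisson intervals cover that error only. The labels do not say that libraries came from separate cultures (the study states that assays were repeated as biological replicates), so p-values measure the spread between these samples. The script was tested on simulated data.

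CPM per kb used the union of exons of GENCODE v29 (GRCh38). Start site windows and their coordinates are from RefSeq (GRCh38.p14). Levels of nearest genes were compared among tested genes with a mean of at least 5 CPM (prior count 2). The genes named are all 10 receptors, every tested ligand and partner chain, in each list the 2 called genes with the smallest adjusted p per comparison, and the 2 nearest genes of each called receptor. Values of some listed genes are not reported here, though they stay in the counts. Receptors and lists were chosen with earlier results of these data known, and the longest transcript was tried after the data were seen. Alternatives were DESeq2 1.42.0 and limma 3.58.1 voom, other scalings, filters and thresholds, a replicate block, and leaving out each library.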

Additional observations from a re-analysis of the deposited data

Results flagged for a closer look

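For 4 receptors the values of the hairpins against sh-Control had opposite signs and the difference between the hairpins itself passed edgeR's quasi-likelihood test. CSF2RB was the 1 receptor called in both directions, higher with shDDX41 #1 and lower with shDDX41 #2, with a log2 difference of 0.80 between them and no overlap of libraries. Its fall with shDDX41 #2 was lost in 3 of the 9 fits that left out 1 library (sh-Control B, shDDX41 #2 A or shDDX41 #2 B, largest adjusted p = 0.101). KIT differed by -2.19, resting on 4 to 44 counts in a library. KIT entered the test only through shDDX41 #2, where it is high, so this difference carries no weight as a test, and its value with shDDX41 #1 (-0.71) did not pass. FLT3 differed by 0.24, a call lost without shDDX41 #2 A (adjusted p = 0.0519), and IFNGR1 by 0.27, and their values with shDDX41 #2 against sh-Control (-0.04 and -0.08) did not pass. LYZ was also higher with shDDX41 #2 (1818 against 931 CPM in sh-Control), as were the myeloid markers MPO and ITGAM. CD33, CD4 and CD68 were higher with shDDX41 #1. The part of these markers in these differences was not tested.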

How the results depend on the processing

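At an adjusted p under 0.01, 4 receptors in place of 7 were called with shDDX41 #1, and 2 in place of 4 with shDDX41 #2. Leaving out each library in turn gave 4 to 7 with shDDX41 #1 (4 without sh-Control B), 2 to 4 with shDDX41 #2 (2 without sh-Control B, shDDX41 #2 A or shDDX41 #2 B) and 5 to 6 between the hairpins. Values that turned sign were all from receptors not called. CSF3R with shDDX41 #1 ranged from -0.02 (without sh-Control D) to 0.09, with -0.0029 without shDDX41 #1 A. CSF3R with shDDX41 #2 was -0.0011 with library size only and ranged from -0.05 (without sh-Control D) to 0.07. TNFRSF1B with shDDX41 #2 was -0.01 with library size only and ranged from -0.06 (without sh-Control B) to 0.05, with -0.01 without shDDX41 #2 D. CSF3R between the hairpins ranged from -0.03 (without shDDX41 #1 A) to 0.06. The cause was not tested. IFNGR1 with shDDX41 #1 also lost its call with library size only (adjusted p = 0.0715), with no filter (0.0516) and with 6 libraries alone (0.0635). Of 536 alternative values of single receptors, 507 kept direction and call. Correlations of same-lettered deviations were -0.0574 to 0.243, being 0.0725, 0.158 and 0.243 between sh-Control and shDDX41 #1 for A, B and D. Unlike letters were not compared, so whether the letters pair the libraries was not settled. With the replicate block 7, 4 and 6 receptors were called. KIT was limited by depth, and the spread of CSF2RB between libraries (coefficients of variation 3.42%, 4.82% and 5.83%) was no larger than its counting error (5.49%, 4.84% and 6.06%).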

Other observations

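Genes around CSF2RA and IL3RA in the pseudoautosomal region were looked at after the values of this pair had been seen. Of 18 other annotated genes there, 13 were tested by edgeR's quasi-likelihood test. With shDDX41 #1, 3 were higher and 4 lower, where 47.8% of all genes were called, and with shDDX41 #2, 2 were higher and 0 lower, where 25.0% were called. SLC25A6, a mitochondrial ADP/ATP carrier next to IL3RA, was higher with both hairpins (log2 fold changes 0.56 and 0.34, adjusted p = 3.79e-05 and 0.00612), as was P2RY8, a G protein-coupled receptor (0.32 and 0.38, adjusted p = 0.000566 and 0.000421). PPP2R3B, a phosphatase subunit, was lower with shDDX41 #1 (-0.95, adjusted p = 2.48e-05), and CD99 was not called (-0.08 and 0.06, adjusted p = 0.332 and 0.512).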
